A study of Arabidopsis thaliana with 4 samples.

Results

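Glucosinolates are sulfur-rich defence compounds of the cabbage order. In Arabidopsis many of them are built from methionine, whose carbon chain is first lengthened. A core structure is then formed, glucosylated and sulfated, and the side chain is modified after that. Damage to a leaf brings the intact compounds together with myrosinase enzymes, which split off the glucose and release toxic products. The genes described here are BCAT4, UGT74B1, UGT74C1 and AOP3, 4 of 13286 genes that the array annotation ties to a probe set of their own. BCAT4 encodes the aminotransferase that turns methionine into the 2-oxo acid which enters chain elongation. UGT74B1 and UGT74C1 encode glucosyltransferases of the core structure, and AOP3 encodes a dioxygenase that makes hydroxyalkyl side chains. Each gene is read by 1 probe set of the Affymetrix ATH1 array, a chip that carries several short probes per transcript. For UGT74C1 the annotation gives only the locus, AT2G31790, while the others carry their own symbols (BCAT4 at AT3G19710, UGT74B1 at AT1G24100, AOP3 at AT4G03050). The 4 genes were selected on their measured log2 values, for having lower means in the gl3 egl3 mutant, so that direction is no finding, and their differences are described without a test.

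The mutant plants carry lesions in GL3 and EGL3, related basic helix-loop-helix regulators that start the formation of leaf hairs (trichomes) together with the MYB protein GL1. They were compared with wild type plants of the Landsberg erecta (Ler) accession. Green tissue of plants aged 20 days was sampled in both groups, with 2 samples in each and 1 array per sample. These are the age and number in the labels, and the study's text gives a different age and number of replicates for this comparison. The titles of the mutant samples name no accession and no alleles, so that an influence of accession on these genes cannot be told apart from that of the mutations. This bears on AOP3, because the AOP locus is known to differ between accessions in which of its genes is expressed. The methods speak of biologically independent material, but the labels do not say which plants made up a sample.

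The arrays were close in overall signal, with median log2 values of 4.99 and 4.95 in gl3 egl3, against 4.96 and 4.92 in wild type. Values under 3 on the log2 scale, where the background correction gathers weak probe sets, are called the low end. Group means of EGL3 lay there, at 2.31 in gl3 egl3 against 2.30 in wild type, which leaves the labels unchecked by the mutated genes, since no probe set of GL3 was analysed here. The green-tissue markers RCA and LHCB4.1, 2 of 8 listed that were measured, were strong in both groups, with means of 12.5 and 13.34 in gl3 egl3, against 12.59 and 13.32 in wild type. Of the root markers, 2 of 6 listed were measured. EXPA7 was at the low end, whereas PYK10, a beta-glucosidase gene, averaged 10.54 in gl3 egl3, against 10.7 in wild type. Its mutant replicates were far apart, at 10.04 in replicate 1 and 11.04 in replicate 2, against 10.75 and 10.64 in wild type. All 5 trichome markers, GL2, TRY, TTG2, MYB23 and ETC1, were at the low end in both groups. None of the 3 listed phloem and vascular markers was measured. FAMA, which guides guard cells and the myrosin cells that hold myrosinase, averaged 6.85 in gl3 egl3, against 7.1 in wild type, and the myrosinase genes TGG1 and TGG2 were not analysed here. The part of these markers in the differences below was not tested. In such bulk tissue, fewer cells that express a gene and less RNA per cell cannot be told apart.

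BCAT4 had log2 values of 9.46 and 8.62 on the gl3 egl3 arrays, against 10.68 and 10.29 on the wild type arrays. The groups did not overlap, and the nearest arrays of the groups were 0.83 apart, about as far as the mutant replicates were from each other. The mutant mean was 9.04 ± 0.592, against a wild type mean of 10.48 ± 0.272 (SD, n = 2 per group). The log2 difference was thus -1.44, with a limma SE of 0.40. On the linear scale this is 36.8% of the wild type signal. Of the 22746 probe sets tested, 129 had a difference as low or lower, and 5 of the 1303 probe sets within 0.5 log2 units of the same mean. Because the genes were selected on this contrast, such counts, here and below, are a description and no sign of rarity.

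AOP3 was close to BCAT4 in size of difference. Its values were 9.63 and 8.88 in gl3 egl3, against 10.63 and 10.58 in wild type. Here the wild type arrays lay almost on top of each other, and the mutant arrays were both lower but spread apart. The mutant mean was 9.25 ± 0.527, against a wild type mean of 10.6 ± 0.0342 (SD, n = 2 per group). The log2 difference was thus -1.35, with a limma SE of 0.33. The mutant signal was 39.3% of that in wild type, and 162 probe sets of the array had a difference as low or lower. Within 0.5 log2 units of the same mean, 5 of 1179 did.

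UGT74B1 acts on thiohydroximates of aliphatic, indole and benzyl type, so it serves all branches of the pathway. Its values were 8.10 and 8.28 in gl3 egl3, against 9.27 and 9.15 in wild type. This gene had the tightest mutant replicates of the 4, and its nearest arrays of different groups were 0.88 apart. The mutant mean was 8.19 ± 0.13, against a wild type mean of 9.21 ± 0.0848 (SD, n = 2 per group). The log2 difference was thus -1.03, with a limma SE of 0.097, and the mutant signal was 49.1% of that in wild type. On the array, 361 probe sets, or 1.59%, had a difference as low or lower, and 34 of the 1918 within 0.5 log2 units of the same mean.

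UGT74C1, which glucosylates intermediates of the methionine-derived branch, differed least. It had 6.72 and 7.08 in gl3 egl3, against 7.16 and 7.14 in wild type. Replicate 2 of the mutant came within 0.06 of the lower wild type array, so most of the difference lies in replicate 1. The mutant mean was 6.90 ± 0.252, against a wild type mean of 7.15 ± 0.0161 (SD, n = 2 per group). The log2 difference was thus -0.25, with a limma SE of 0.16. Leaving out mutant replicate 1 gave -0.07, and leaving out mutant replicate 2 gave -0.43. A difference as low or lower was found for 13.4% of all probe sets, and for 19.9% of the 2324 within 0.5 log2 units of the same mean. UGT74C1 thus belongs among the 4 by its sign more than by its size.

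**Figure D1:**
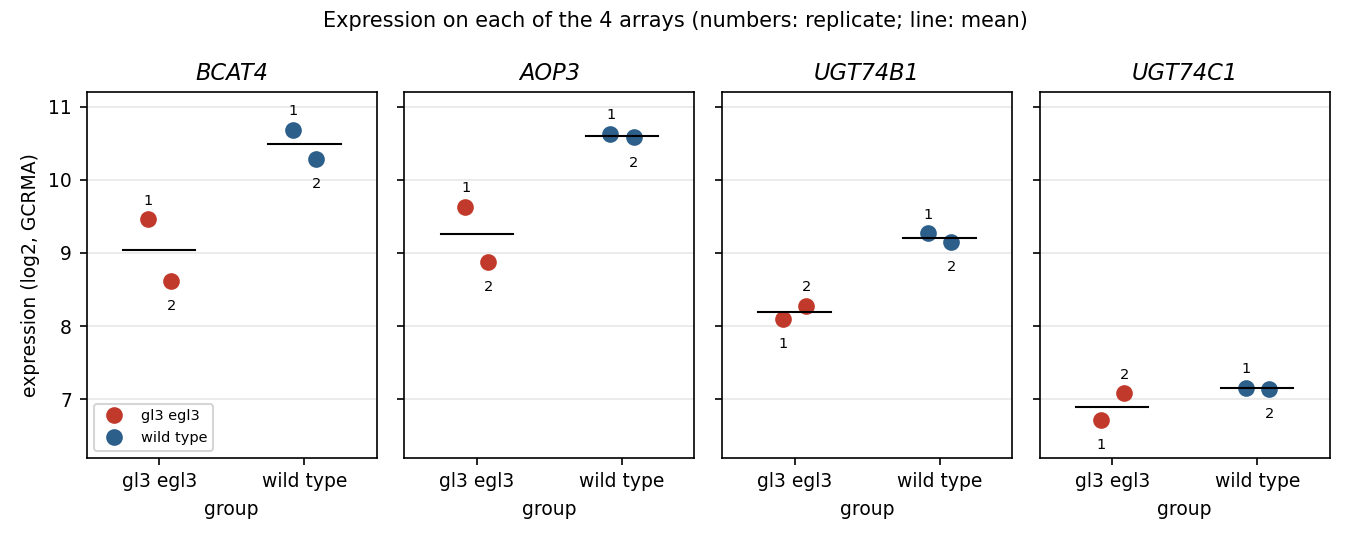
Log2 expression of BCAT4, AOP3, UGT74B1 and UGT74C1 on each array (points, numbered by replicate), with gl3 egl3 left of wild type and the group mean as a line. The mutant arrays of BCAT4 and AOP3 are 0.84 and 0.74 apart, and replicate 2 of UGT74C1 in gl3 egl3 comes within 0.06 of a wild type array.

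In all 4 genes the gl3 egl3 arrays lay below the wild type arrays, as 12.7% of all probe sets did and 18.3% of the 11298 with a mean of 5 or more. With each array centred on its median, 18.8% of all probe sets lay below and 14.2% above. A lower mean in the mutant, the property by which the genes were selected, was found for 37.2% of all probe sets. These shares are background only, because the selection used the same contrast. No probe set on the array passed a limma adjusted p of 0.05 (0%), and the smallest adjusted p was 0.0769. At an unadjusted p under 0.05, 2117 probe sets differed (9.31%), and the methods' t-test also called 0 after adjustment. The level used in the methods, an unadjusted p under 0.01, was reached by 1.22% of probe sets with a lower value in gl3 egl3 and by 2.03% with a higher one. Centring each array on its median gave 398 lower and 439 higher, in place of 278 lower and 462 higher.

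**Figure D2:**
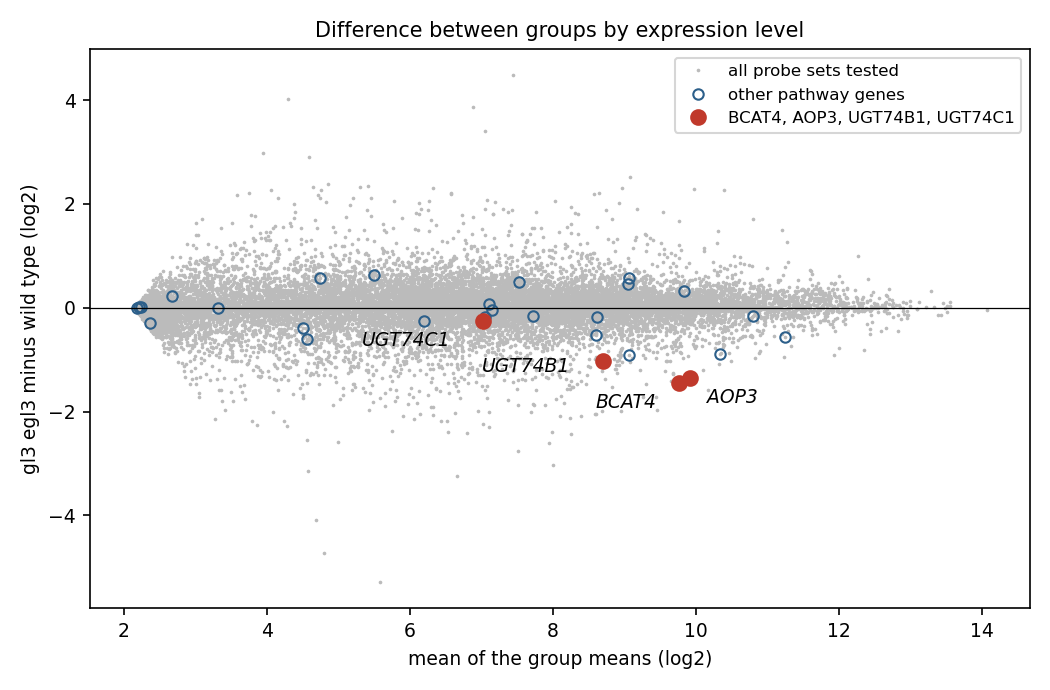
Log2 difference, gl3 egl3 minus wild type, against the mean of the group means for all 22746 probe sets tested (grey), the other pathway genes (open circles) and the 4 genes described (red). BCAT4 and AOP3 lie at -1.44 and -1.35 among strong probe sets, and UGT74C1 at -0.25 lies within the main cloud. The 4 genes were selected on this difference, so their place is a description.

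The spread between replicates divided the genes in another way. It is not independent of the selection, since a low mutant array lowers the mutant mean by which the genes were selected. In gl3 egl3, replicate 2 was below replicate 1 by 0.84 for BCAT4 and 0.74 for AOP3, or 1.79-fold and 1.68-fold. Among probe sets within 0.5 of the same mean over the 4 arrays, 0.691% were as far below for BCAT4 and 1.1% for AOP3. The median gap between the mutant replicates at those levels was 0.16. UGT74B1 and UGT74C1 went the other way in the mutant, with replicate 2 above replicate 1 by 0.18 and 0.36. In wild type the gaps of AOP3, UGT74B1 and UGT74C1 were 0.05, 0.12 and 0.02, and that of BCAT4 was 0.38. The labels give no property of the samples that sets the mutant replicates apart.

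BCAT4 and AOP3 also had some of the closest profiles to each other. Likeness was measured as the root mean square distance between log2 values centred on each gene's own mean over the 4 arrays, so it holds the group difference by which both were selected and is a description. Among 5989 probe sets with 1 gene and a mean of 5 or more, AOP3 ranked 4 from BCAT4, at a distance of 0.13 against a median of 0.829. In turn BCAT4 ranked 4 from AOP3. The other genes nearest to BCAT4 were AT1G55210 at 0.043, AT3G51450 at 0.10, AT1G23140 at 0.11 and SGP1, a small GTPase gene, at 0.14. AOP3 had AT3G45210, AT5G63130, SGP1 and AT2G24160 beside BCAT4, at 0.11 to 0.14. UGT74B1 was 0.43 from BCAT4 and 0.37 from AOP3, and 841 and 423 of the probe sets were closer to it than these. Its own nearest were AT1G68620 and AT5G63680 at 0.055, JAL22, a jacalin-related lectin gene, at 0.08, the receptor-like kinase gene AT1G61380 at 0.081 and AT2G41250 at 0.088.

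UGT74C1 was 0.40 from UGT74B1, a distance between those of AOP3 and BCAT4 from that gene, and 598 of the probe sets were closer to UGT74B1. It was 0.67 from AOP3 and 0.74 from BCAT4. Counted from UGT74C1, whose steps were small, 80.5% of the probe sets were closer than UGT74B1, 96.6% closer than AOP3 and 97.6% closer than BCAT4. Its nearest genes, AT1G09320, AT1G09870, AT5G48020, AT4G29020 and AT1G21830, lay at distances of 0.013 to 0.031, against a median of 0.268. With only 4 arrays these neighbours are loose: when an array was left out, between 0 and 3 of the 5 nearest genes were the same for any of the 4 genes.

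**Figure D3:**
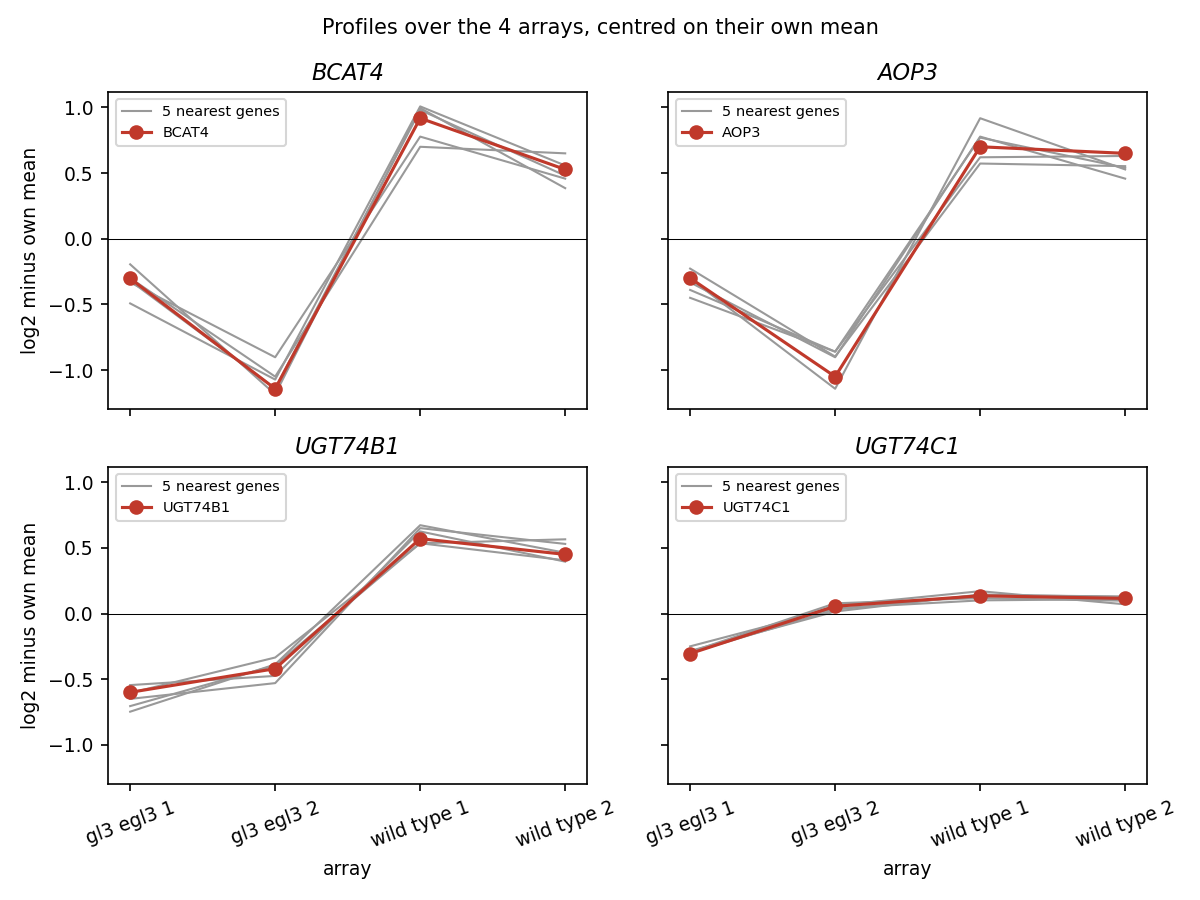
Log2 values of each gene (red) and its 5 nearest genes (grey) on the 4 arrays, each centred on its own mean. BCAT4 and AOP3 share the step between replicates 1 and 2 of gl3 egl3, by 0.84 and 0.74, which UGT74B1 and UGT74C1 lack.

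To place the 4 genes in their pathway, 141 other genes were listed by role, of which 25 had a named probe set. None of the 8 other genes of chain elongation had one, the methylthioalkylmalate synthases included, so BCAT4 alone represents this step. Of the 25 genes, 8 came from the glucosinolate lists (69 genes listed), with a median log2 difference of -0.21. Their gl3 egl3 arrays lay below the wild type arrays in 4 and above them in 3. The other 17 came from lists of supply and related genes (72 listed), with a median of -0.01, 6 below and 5 above. Over all 25 genes the median log2 difference was -0.04, beside 0.01 over all probe sets. The gl3 egl3 arrays lay below the wild type arrays in 10 of the 25 and above them in 8, where 12.7% and 38.1% of all probe sets did so. This background depends on scaling: after centring on the medians, 10 of the genes lay below and 4 above, beside 18.8% and 14.2% of all probe sets. Restricted to the 16 genes with a mean of 5 or more, 7 were below and 4 above, against 18.3% and 28.3% of such probe sets. By limma, 2 of the 25 were lower at an unadjusted p under 0.01, 0 were higher, and 0 passed after adjustment, beside 1.22% lower and 2.03% higher over all probe sets. At an unadjusted p under 0.05 there were 3, where 9.31% of all probe sets reached that level, so that with 25 genes the count is near the background.

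Among 17 other listed genes of the core structure, 2 were measured. GSTU20 is a glutathione transferase gene linked to the methionine-derived branch. It had 10.05 and 9.75 in gl3 egl3, against 11.16 and 10.41 in wild type. The groups did not overlap, but the wild type arrays differed by more than the nearest arrays of the groups. It differed by -0.89 on the log2 scale (SE 0.354, limma adjusted p = 0.662). CYP79A2, which starts benzyl glucosinolates from phenylalanine, was at the low end on all arrays.

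Of 15 other side-chain genes listed, only 2 were measured. Both had higher means in the mutant, unlike AOP3, and neither passed the test. AOP1, a relative of AOP3, is next to it in the RefSeq order of protein-coding genes, where genes of other types were not counted. It had 5.40 and 4.68 in gl3 egl3, against 4.59 and 4.33 in wild type, and differed by 0.58 on the log2 scale (SE 0.331, limma adjusted p = 0.793). The gene listed as GSL-OH, AT2G25450, whose dioxygenase hydroxylates alkenyl side chains, had 9.16 and 9.54 in gl3 egl3, against 8.46 and 9.11 in wild type, and differed by 0.57 on the log2 scale (SE 0.328, limma adjusted p = 0.793). In both, the lower mutant array was barely above the higher wild type array.

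Of the regulators, 2 of 12 listed were measured, the bHLH genes MYC3 and MYC4. They encode jasmonate-responsive factors that act with MYB proteins on glucosinolate genes. MYC4 had 4.29 and 4.24 in gl3 egl3, against 4.79 and 4.94 in wild type, and was lower in the mutant by an unadjusted limma p of 0.00527, with a difference of -0.60 (SE 0.0693) and an adjusted p of 0.257. With 16 added on the linear scale, which damps weak probe sets, the difference was -0.36. When any 1 of the arrays was left out, MYC4 no longer reached that level, with differences of -0.68 to -0.53. MYC3 overlapped between the groups and differed by -0.17 (SE 0.19). No MYB gene of the pathway was analysed here.

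GTR1 and GTR2 encode the importers that load glucosinolates into the phloem. They were the 2 measured of 17 listed genes of transport and breakdown. GTR1 had 8.52 and 8.15 in gl3 egl3, against 8.97 and 8.76 in wild type, and differed by -0.52 on the log2 scale (SE 0.188, limma adjusted p = 0.622). GTR2 had 6.22 and 5.93 in gl3 egl3, against 6.31 and 6.35 in wild type, and differed by -0.25 on the log2 scale (SE 0.126, limma adjusted p = 0.758). In both genes replicate 2 of the mutant was the lowest array, as in BCAT4 and AOP3. It was also the lowest for GSTU20 and MYC4 above and for IGPS, UGT75D1 and UGT74D1 below, so this is not particular to the importers. Where both mutant arrays lie below wild type, either replicate 1 or replicate 2 of the mutant has to be the lowest. Over the 16 pathway genes with a mean of 5 or more, 11 had replicate 2 of gl3 egl3 below replicate 1, or 68.8%, with a median gap of 0.14. Over all probe sets of that level the share was 49.5% and the median gap 0.

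Among the genes that supply sulfur and amino acids, means differed in both directions. In sulfate assimilation 4 of 28 listed genes were measured, with differences from -0.38 to 0.63. APS4, an ATP sulfurylase gene, had the highest of them, with 5.98 and 5.66 in gl3 egl3 against 5.07 and 5.31 in wild type (limma adjusted p = 0.528). PAPST1, named TAAC in the annotation, which carries the sulfate donor PAPS out of plastids, had the lowest, and the sulfite reductase gene SIR differed by -0.16. Of 3 measured genes of methionine metabolism (13 listed), MGL, for a methionine-degrading lyase, differed by 0.49 with overlapping arrays, CBL by -0.16 and HMT1 by -0.01.

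Of 13 genes of branched-chain amino acid metabolism, where relatives of BCAT4 act, 4 were measured. BCAT5, named beyond the rule for listed genes as a relative of BCAT4, averaged 7.12 in gl3 egl3, against 7.17 in wild type, with overlapping arrays and a log2 difference of -0.04 (SE 0.126). BCAT6 lay at the low end. The genes for KARI and DHAD, which act before the aminotransferase step of valine and isoleucine synthesis, differed by 0.33 (SE 0.115) and 0.45 (SE 0.261), with adjusted limma p of 0.614 and 0.793. In tryptophan synthesis, which feeds the indole branch, only IGPS was measured, of 8 listed genes. It had 11.06 and 10.87 in gl3 egl3, against 11.72 and 11.32 in wild type. The log2 difference was -0.56 (SE 0.192, limma adjusted p = 0.608).

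Among 10 listed relatives of the UGT74 genes, 5 were measured. UGT75D1 is named IAGLU in the annotation for its action on the auxin indole-3-acetic acid. It had 8.74 and 8.47 in gl3 egl3, against 9.45 and 9.59 in wild type. Its log2 difference was -0.91 (SE 0.134), at an unadjusted limma p of 0.0098 and an adjusted p of 0.303. It too missed that level when any 1 of the arrays was left out, with differences of -1.05 to -0.78. UGT74D1, which lies a few genes from UGT74C1, had 7.05 and 6.89 in gl3 egl3 against 7.09 and 7.20 in wild type, and differed by -0.17 on the log2 scale (SE 0.0873). UGT75C1 was at the low end in both groups, as were UGT74F1 and UGT84B1, which are named beyond the rule.

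**Figure D4:**
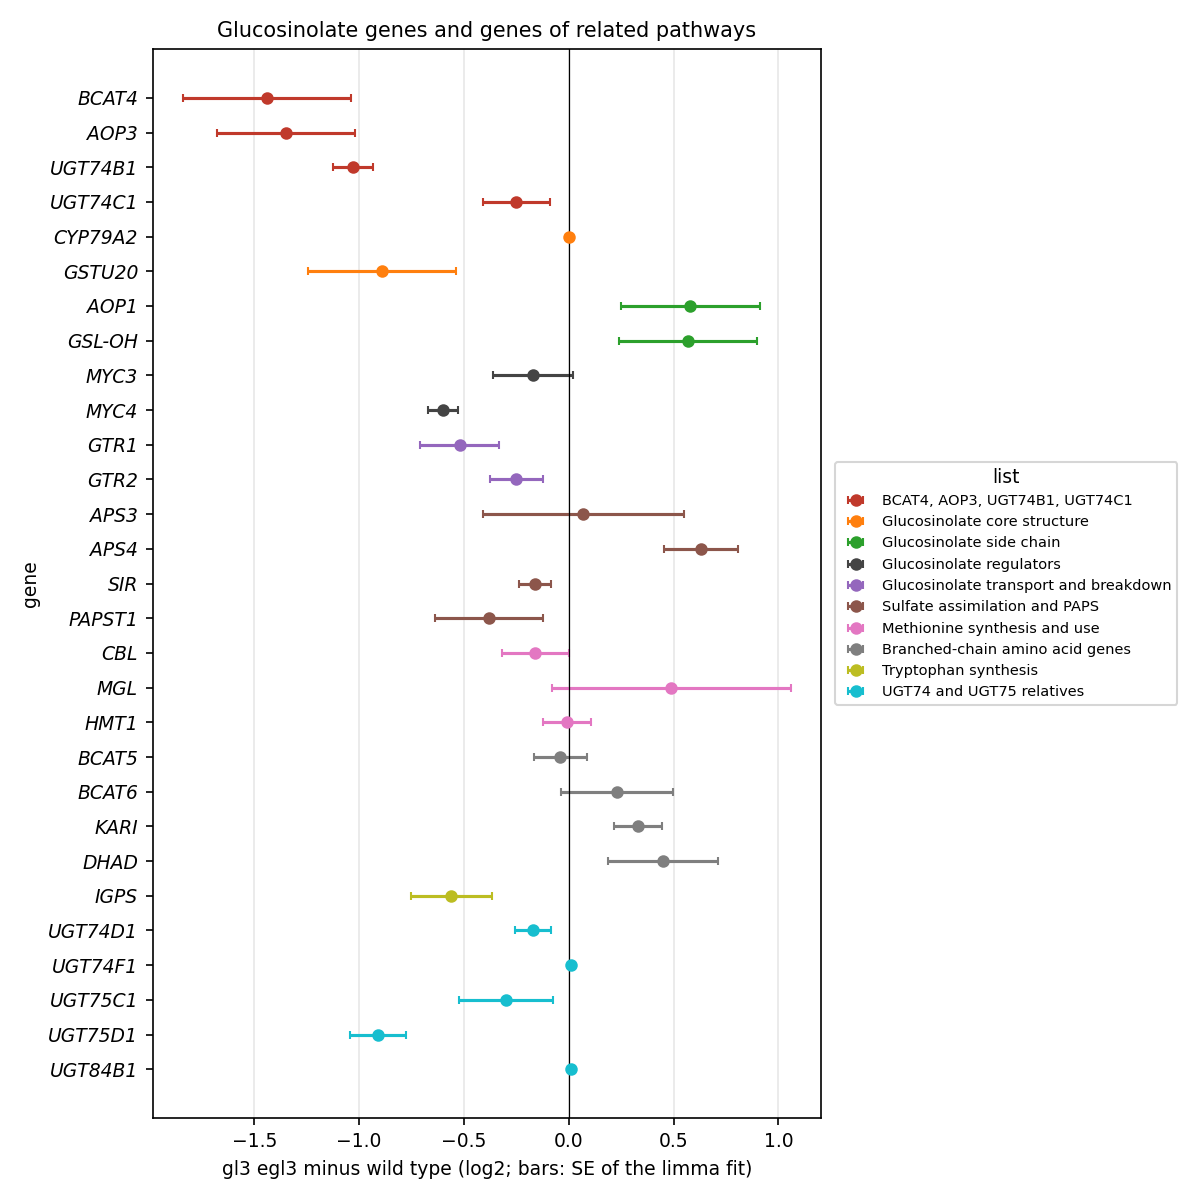
Log2 difference, gl3 egl3 minus wild type, of the 4 genes described and of 25 listed genes of related pathways, coloured by list, with the SE of the limma fit as bars. BCAT4, AOP3 and UGT74B1 lie from -1.44 to -1.03, and among the listed genes GSTU20 and UGT75D1 are lowest, at -0.89 and -0.91. The 4 genes were selected on this contrast and the listed genes were not, so their order is a description.

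The 4 genes lie on 4 different chromosomes. Of the 10 protein-coding genes on each side of BCAT4, 11 in all had a named probe set, with a median log2 difference of 0.01. Among them AT3G19680, named after its value was seen, had 10.36 and 10.36 in gl3 egl3, against 9.07 and 9.26 in wild type (log2 difference 1.20, limma adjusted p = 0.225). Those around AOP3 (11 measured) had a median of 0.10, with differences from -0.12 to 0.58, beside -1.35 for AOP3, which was selected on this contrast. Around UGT74B1 the median was 0.01 over 8 genes, and AT1G24140, named after its value was seen, had 4.49 and 5.16 in gl3 egl3, against 6.27 and 5.77 in wild type, and differed by -1.20 on the log2 scale (SE 0.366, limma adjusted p = 0.562). Around UGT74C1 the 11 measured genes had a median of 0 and a range from -0.17 to 0.85.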

How the data were processed

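RNA was amplified to cDNA and labelled for ATH1 arrays. The deposited log2 values, 1 per probe set and array, were made by the authors from the scanned images with GCRMA in R. GCRMA corrects background by probe sequence, equalises the arrays by quantiles and merges the probes of a set. The sources used here give neither its version nor which arrays were normalized together.

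From the 22810 probe sets, 64 controls were removed. Names came from the platform annotation (13513 probe sets with 1 gene, 503 with several, 8730 with none), matched for 13436 by gene number to RefSeq TAIR10.1. The trichome markers and EGL3 were taken from probe identifiers in the study's gene list where unnamed. Genes with several probe sets use the one with the highest mean. A listed gene without a named probe set may be read by an unnamed one.

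limma 3.58.1 (R 4.3.3, lmFit and eBayes, two-sided, no covariates, Benjamini-Hochberg over 22746 probe sets) gave differences, with 2 residual degrees of freedom and 0.623 added by the prior. The number of arrays limits the precision. p-values measure only the spread between these samples. From each list, genes at an unadjusted p under 0.01 were named, filled up to 3 by the largest difference. Genes, lists and tests were chosen with earlier results of these data known. Alternatives were quantile normalization, median centring, 16 added on the linear scale, a mean of 5 or more, robust variances with an intensity trend, a replicate block, the methods' t-test and leaving out each array. The fits were tested on simulated data.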

Additional observations from a re-analysis of the deposited data

How the results depend on the processing

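The differences of BCAT4, AOP3, UGT74B1 and UGT74C1 had the same sign in all 32 alternative values. Leaving out 1 array could not turn the sign, since the groups do not overlap in these genes. Nor, with 2 arrays per group, could it move a difference beyond the spread between replicates. Those values show only how far each difference depends on 1 array. Quantile normalization, median centring and 16 added gave -1.48 to -1.41 for BCAT4 and -1.38 to -1.32 for AOP3. They gave -1.06 to -0.99 for UGT74B1 and -0.28 to -0.22 for UGT74C1. Leaving out 1 array gave -1.86 to -1.02 for BCAT4, -1.72 to -0.98 for AOP3, -1.12 to -0.94 for UGT74B1 and -0.43 to -0.07 for UGT74C1. With the replicate number as a block, which cannot change a difference in this balanced design, the differences stayed at -1.44, -1.35, -1.03 and -0.25. The labels do not say that same-numbered samples belong together. Replicate deviations of the groups correlated at 0.134 over probe sets. The block left 278 lower and 363 higher probe sets at an unadjusted p under 0.01.

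Over the array, the higher count at that level was 289 with a mean of 5 or more, 259 with an intensity trend and 205 with the methods' t-test, which gave 118 lower. Leaving out 1 array, the lower count was 175 when gl3 egl3 replicate 2 was dropped, 905 when wild type replicate 1 was, and 676 when wild type replicate 2 was. Centring turned the balance of probe sets whose gl3 egl3 arrays all lay on one side of the wild type arrays, with 4271 below and 3222 above, in place of 2886 below and 8660 above. Those above numbered 3194 with a mean of 5 or more, and 10714 to 13257 without 1 array. Those below numbered 4862 to 6331 without 1 array, where fewer arrays have to be separated. For the rest the cause was not tested.

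Of the other pathway genes, 2 were lower at that level, but 1 with quantile normalization, with 16 added, with a mean of 5 or more and with an intensity trend, and 0 with the replicate block and the methods' t-test. Leaving out 1 array gave 0 to 2 lower and 0 to 1 higher, the 0 lower without gl3 egl3 replicate 1, gl3 egl3 replicate 2 or wild type replicate 1. The 2 lower without wild type replicate 2 were other genes, PAPST1 (-0.67) and UGT75C1 (-0.56), and the 1 higher without wild type replicate 1 was BCAT6. Whichever array was left out, MYC4 and UGT75D1 no longer reached that level. Those above the wild type arrays numbered 4 after centring and 4 with a mean of 5 or more. Leaving out 1 array gave -0.36 to 0.02 for MYC3 and -0.34 to 0.02 for CBL, with the higher value when gl3 egl3 replicate 1 was dropped. It gave -0.14 to 0.12 for HMT1 (higher when wild type replicate 1 was dropped) and -0.08 to 0.54 for BCAT6 (lower when wild type replicate 2 was dropped). Of genes that passed no test, it gave 0.01 to 0.97 for MGL, 0.22 to 0.94 for AOP1, 0.24 to 0.89 for GSL-OH, 0.16 to 0.75 for DHAD and -1.26 to -0.51 for GSTU20. Averaging several probe sets per gene could give no other value, since each of these genes has 1. Of the 5 nearest genes, leaving out 1 array kept 1 to 2 for BCAT4, 0 to 1 for AOP3, 0 to 1 for UGT74B1 and 0 to 3 for UGT74C1.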
